A study of Mus musculus with 4 samples.

Results

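Transcript levels of neural stem cells labelled as lacking both Tut1 and Trp53 were set against those of control cells, with 1 library on each side. The comparison covered every protein-coding gene that reached 10 TPM, a level scaled for transcript length and library size, in at least 1 of the 2 libraries, which were 8261 of the 21894 protein-coding gene IDs in the deposited table. Of these, 7713 genes reached 10 TPM in both libraries, 329 in the control alone and 219 in the double KO alone. The genes are read here by pathway and gene family, because a single gene in a pair of libraries without replicates cannot be set against any spread between cultures.

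The cells were primary mouse neural cells, grown as neural stem cells from embryonic cortex. The control library came from a culture with floxed Tut1 (genotype Tut1f/f) that was given empty lipid nanoparticles (LNP). The library labelled double KO came from a Tut1f/f;p53f/f culture given Cre-LNP, nanoparticles that carry mRNA for the recombinase Cre, for 3 days. The other 2 libraries of the series, labelled Tut1 KO (Tut1f/f) and Trp53 KO (p53f/f), were given Cre-LNP as well and are used here as a second pair that shares no library with the first. The difference between the double KO and the control therefore holds both deletions, the Cre mRNA and the genotype at Trp53 before deletion, and these cannot be told apart. Libraries are called by their labels throughout. The labels do not say how many embryos a culture came from. In bulk RNA, fewer cells of a type and less RNA per cell cannot be told apart either.

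TUT1 is a terminal uridylyltransferase, and the tail of U6 snRNA is its best known substrate. U6 joins U4 and U5 in the tri-snRNP, which enters the spliceosome and, once the helicase SNRNP200 has unwound U4 from U6, forms the catalytic centre held by PRPF8. The transcription factor p53, encoded by Trp53, switches on genes for cell cycle arrest, apoptosis, DNA repair and metabolism, and loss of a splicing component is a known stress that can activate it.

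Of the compared genes, 723 (8.75%) share exons with another gene, so that the split of their reads is uncertain. Those named below for which this holds are Kxd1, Rcc1, Raly, Eif5, Bax, Tut7, Cebpg, Ddit3, Hspa8, Rad54b, Glul, Gria4, Fdps, mt-Nd4l and mt-Co3, together with Matr3, Derpc, Zbtb6 and both Septin2 IDs.

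A difference is given throughout as double KO minus control on the log2(TPM + 1) scale, which understates the change of low genes. The depth of the libraries is unknown, since TPM keeps none. No test was run, and no error or p-value can be given. A gene was called higher or lower when it differed by at least 1 on this scale. By that threshold 92 genes (1.11%) were higher and 120 genes (1.45%) were lower in the double KO. At 1.5-fold, 231 genes (2.8%) were higher and 303 (3.67%) lower. The median over all genes was 0.00, the middle 50% lay between -0.14 and 0.12, and 49.7% of genes were above 0 and 50.3% below it. Large differences were more frequent among low genes. They made up 4.41% of the 2563 genes with a mean under 20 TPM and 1.22% of the 1391 genes at 100 TPM or more.

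**Figure D1:**
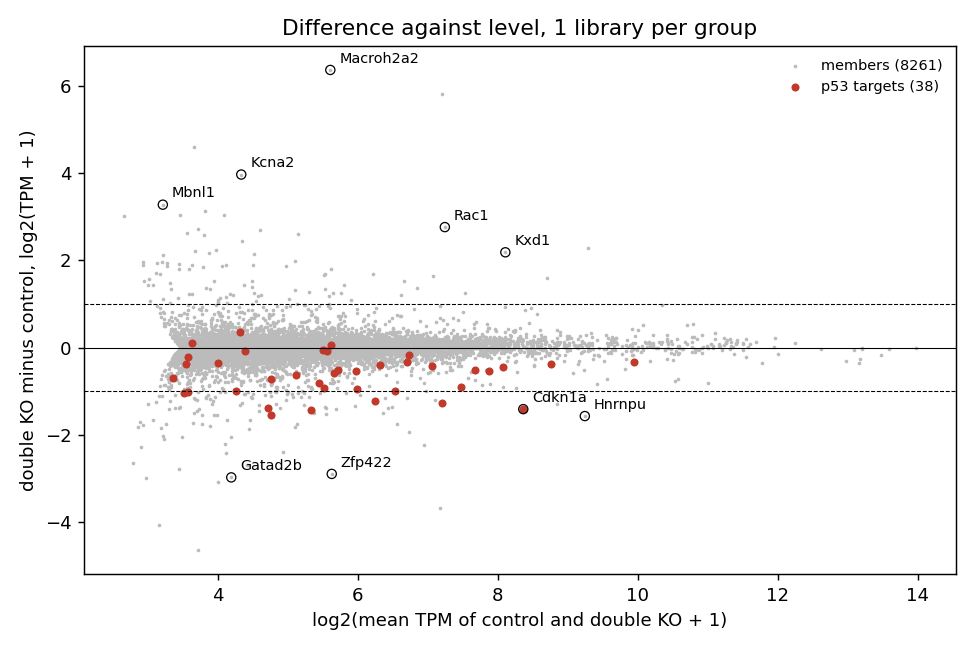
Each point is 1 of the 8261 protein-coding genes, with its mean level in the control and double KO libraries on the x axis (log2 of TPM + 1) and its difference, double KO minus control, on the y axis (log2 of TPM + 1). Dashed lines mark the threshold of 1 in each direction, red points are the 38 p53 targets and circled genes are named in the text. The p53 targets lie mostly below 0 at all levels, with Cdkn1a at -1.41.

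The identity of the cells was read from fixed marker genes. All 9 neural stem cell markers reached 10 TPM in both libraries, and their summed level was 12634 TPM in control cells against 12439 TPM in double KO cells. Fabp7, a fatty acid binding protein of radial glia, had 9441 and 9394 TPM, and the stem cell factor Sox2 had 370 and 385 TPM. Olig1 (1029 and 921 TPM) and Olig2 (619 and 583 TPM), factors of oligodendrocyte precursors that cultured neural stem cells also express, were high as well. The 18 markers of microglia, endothelium, mural cells, fibroblasts and blood were each under 1 TPM in both libraries, with summed levels between 0 and 1.14 TPM a cell type. Of 5 neuronal markers, Tubb3, a tubulin, had 12.6 and 12.5 TPM, and Rbfox3 (4.90 and 4.596 TPM) and Dcx (2.77 and 3.03 TPM) were lower. Of 5 astrocyte markers, the folate enzyme gene Aldh1l1 had 77.9 and 86.7 TPM, whereas Gfap, the intermediate filament, was at 0.13 and 0.69 TPM.

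Sex-linked transcripts were those of male cells on both sides of the pair. Xist, the RNA that silences 1 X chromosome in female cells, was at 0.01 TPM on both sides, while the Y-linked helicase gene Ddx3y had 24.4 and 25.7 TPM. The levels of the Y-linked genes were not all alike, since Eif2s3y had 62.0 and 34.9 TPM (-0.81) and Kdm5d 5.54 and 12.4 TPM (1.03), while Uty had 6.65 and 6.81 TPM. In the second pair, Xist had 188 TPM with the Tut1 KO label and 204 TPM with Trp53 KO, and all 4 Y-linked genes were listed at 0.

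The targeted genes differed in how far the values followed the labels. Trp53 (ENSMUSG00000059552, chr11:69580359-69591873, plus strand, GRCm38) had 120 TPM in control cells against 41.9 TPM in double KO cells, a difference of -1.49. Tut1 (ENSMUSG00000071645, chr19:8953847-8966210, plus strand) had 12.2 TPM in control cells against 13.7 TPM in double KO cells, a difference of 0.16 that goes against the label. The library labelled Tut1 KO, at 29.8 TPM, went further in the same direction. The floxed exon of Tut1 is exon 2 of 9, at chr19:8955387-8955577. It holds 191 of the 2753 bases of the annotated transcript, all of them coding, and its length leaves a remainder of 2 when divided by 3. A gene-level TPM need not fall when this exon alone is lost, and reads over it were not analysed here. The study itself reports efficient loss of exon 2 in Tut1f/f neural stem cells given Cre-LNP, measured by qPCR or long reads. The sequence of the deleted exon, from the GENCODE M21 transcript, is shown because the deletion rests on it:

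Tut1 exon 2: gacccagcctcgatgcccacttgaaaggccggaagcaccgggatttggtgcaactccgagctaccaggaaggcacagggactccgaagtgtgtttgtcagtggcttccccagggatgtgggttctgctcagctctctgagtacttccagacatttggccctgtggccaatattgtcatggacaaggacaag

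The clearest group difference was that of the p53 target genes. Of 52 listed targets, 38 reached the minimum level. Their median difference was -0.53, 35 of the 38 were below 0 where 50.3% of all genes were, and 9 were called lower where 1.45% of all genes were. At 1.5-fold, 17 were lower and none was higher. Of the 38, 4 passed the minimum through the control alone, the side where they are higher. With 10 TPM asked of both libraries the median was -0.52. The summed level of the 38 genes was 4912 TPM in control cells against 3272 TPM in double KO cells, a change of -33.4%. The list of targets was compiled from textbook knowledge with earlier results of these data known, so its direction is described and not tested. Of 71 other lists with 5 or more genes outside the p53 group, 53 had a median within 0.1 of 0 and 69 within 0.2.

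Targets that act in cell cycle arrest had a median of -0.58, and all 13 were below 0. Cdkn1a, the CDK inhibitor p21, had 477 TPM in control cells against 179 TPM in double KO cells (-1.41). Trp53inp1, a p53-induced nuclear protein, had 57.5 and 20.8 TPM (-1.43), and Ccng1, which encodes cyclin G1, had 208 and 85.5 TPM (-1.27). These 3 genes were called lower. Psrc1, a spindle protein, had 231.8 and 122.6 TPM (-0.91), whereas Plk2 (112 and 98.9 TPM) and Ccng2 (47.7 and 44.8 TPM) differed by -0.17 and -0.09.

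Targets that act in apoptosis had the lowest median of all lists at the minimum used here, -0.70 over 12 genes. Of these, 2, Tnfrsf10b and Pmaip1, passed it through the control alone. With 10 TPM asked of both libraries the median was -0.44, and that of the cell cycle arrest targets was lower, at -0.60. Eda2r, a receptor of the tumour necrosis factor family, had 39.1 TPM in control cells against 12.7 TPM in double KO cells (-1.55). Tnfrsf10b, the death receptor for TRAIL, had 14.5 and 6.47 TPM (-1.05). Phlda3, an inhibitor of AKT at the membrane, had 122 and 60.6 TPM (-1.002), and Pmaip1, which encodes the BH3-only protein Noxa, had 14.9 and 6.79 TPM (-1.03). The related BH3-only gene Bbc3, or Puma, lay just inside the threshold at 24.3 and 11.8 TPM (-0.98), and the nuclease gene Aen had 82.8 and 42.5 TPM (-0.95). Bax, the pore-forming effector, whose gene shares exons with another, was less far apart at 309 and 225 TPM (-0.45). By contrast, the 17 genes of the core apoptosis machinery had a median of -0.07, which turned to 0.01 with no minimum level. None was called in either direction, although 1 of them was at least 1.5-fold higher. Over all genes 1.11% were called higher and 1.45% lower, so for 17 genes this is near those shares.

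Targets in repair and metabolism had a median of -0.51 over 13 genes, or -0.33 with a minimum of 1 TPM. Dcxr, a carbonyl reductase, had 37.1 and 13.6 TPM (-1.38), and the adenylate kinase gene Ak1 had 105 and 44.1 TPM (-1.23). Sesn2, a leucine sensor that restrains mTORC1, had 59.1 and 30.7 TPM (-0.92). Sesn1 differed in the other direction with 16.4 and 21.4 TPM (0.36), and Tigar, a phosphatase of glycolytic intermediates, had 10.9 and 11.9 TPM (0.11).

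Among the regulators of p53, Mdm2, which encodes its ubiquitin ligase and is itself a target, had 69.1 TPM in control cells against 43.4 TPM in double KO cells (-0.66), and Mdm4 had 33.9 and 25.6 TPM (-0.39). The checkpoint kinase gene Chek1 had 12.56 and 24.99 TPM (0.94), while Chek2 had 27.3 and 27.1 TPM (-0.01). The median of the 11 regulators was -0.10.

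**Figure D2:**
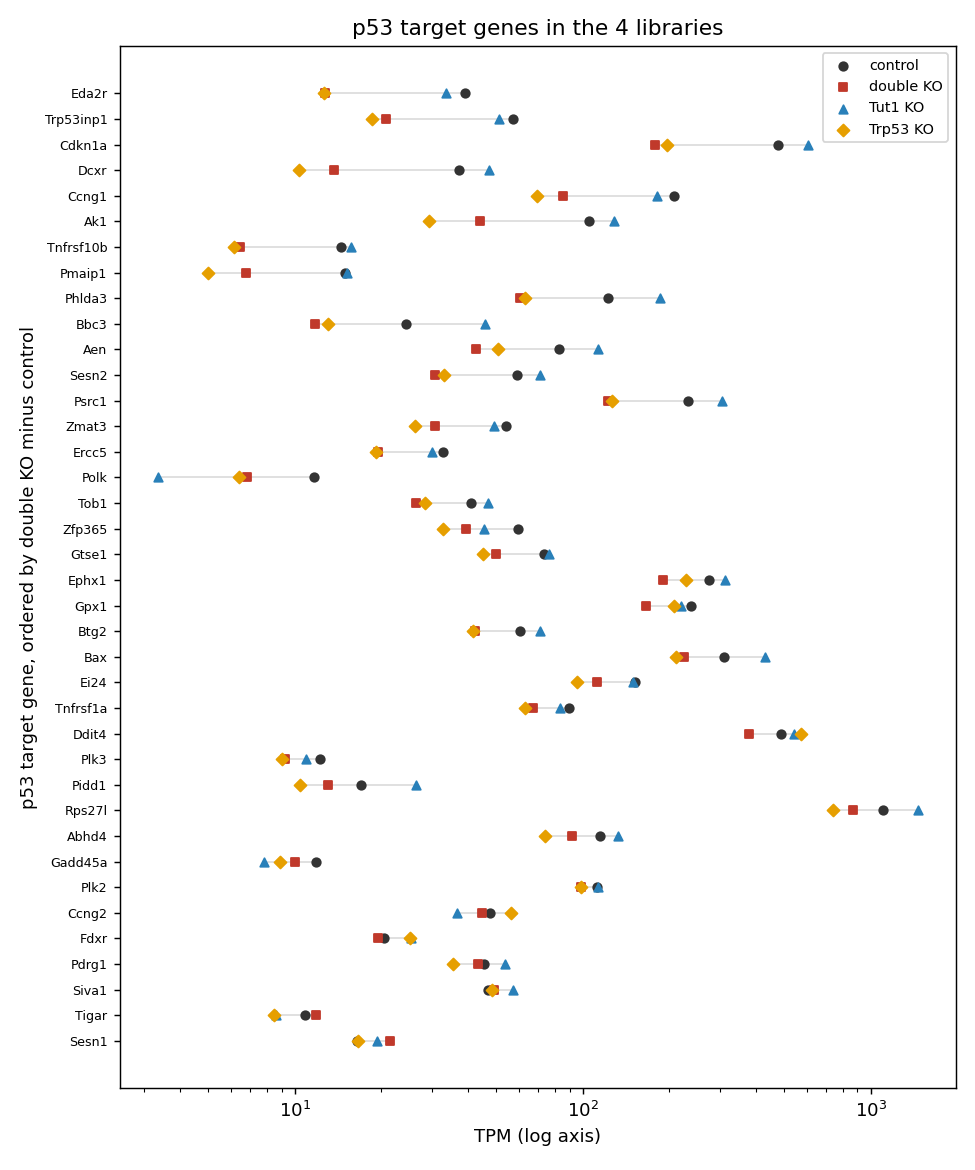
TPM (log axis) of the 38 p53 targets in each of the 4 libraries, ordered from the lowest double KO minus control difference at the top. In the upper part of the plot the double KO and Trp53 KO values sit together on the left and the control and Tut1 KO values on the right, as for Cdkn1a at 179 and 196 TPM against 477 and 605 TPM.

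The second pair, Trp53 KO minus Tut1 KO, carries the Trp53 label in the same direction and the Tut1 label in the opposite one, and shares no library with the first. There 34 of the 38 p53 targets were below 0, where 43% of all genes were, and their median was -0.75. The apoptosis targets had a median of -1.18, with all 12 below 0. Of the 120 genes called lower in the double KO, 30 were also lower by at least 1 in the second pair, where 1.57% of all genes were, and 9 of these 30 were listed p53 targets. The 30 also held Trp53 itself (100.4 and 39.7 TPM in the second pair). Another 20 of the 120 were past 1 in the opposite direction there, and 43.3% of the 120 were below 0, close to the 43% of all genes. Over all 8261 genes the differences of the pairs had a Pearson's r of -0.01 and a Spearman's rho of -0.07 across genes, which are not independent replicates.

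Genes outside the target list that were lower in both pairs, chosen after their values were seen, are given for both pairs in the order control, double KO, Tut1 KO, Trp53 KO. Gdf15, a secreted stress cytokine, had 13.2, 5.67, 18.4 and 6.87 TPM. Orai1, a store-operated calcium channel, had 20.9, 9.83, 26.9 and 7.58 TPM, and Suclg2, a subunit of succinyl-CoA ligase, had 52.8, 20.5, 50.6 and 19.1 TPM. In each of these genes both libraries labelled with Trp53 deletion were below both of the others. That order largely follows from choosing genes lower by at least 1 in both pairs, and its share over all genes was not counted. Gdf15 and Orai1 passed the minimum of the first pair through the control alone.

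Among the zinc finger and chromatin genes lower in both pairs, Zfp422 had 86.0, 10.7, 59.3 and 8.53 TPM and Gatad2b, of the NuRD complex, had 31.4, 3.11, 26.4 and 2.52 TPM. Jarid2, which recruits Polycomb repressive complex 2, had 15.04, 6.91, 12.3 and 5.43 TPM.

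Of the 92 genes called higher, 18 were also higher by at least 1 in the second pair, where 1.84% of all genes were, and 15 were lower by at least 1 there. None of the 18 was a listed p53 target. The flap endonuclease gene Fen1, needed to join Okazaki fragments, had 18.7 TPM in the control, 48.2 in the double KO, 16.4 with the Tut1 KO label and 42.2 with Trp53 KO. Rcc1, the nucleotide exchange factor of Ran, had 29.1, 80.8, 20.04 and 76.5 TPM, and Kxd1, a subunit of the BORC complex on lysosomes, had 98.1, 451, 119 and 447 TPM. Nupr1, a small stress-induced chromatin protein, had 2.23, 10.9, 4.55 and 11.2 TPM. For these 4 genes both libraries labelled with Trp53 deletion were above both of the others. Here too the order largely follows from choosing genes higher by at least 1 in both pairs. Nupr1 passed the minimum through the double KO alone.

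Promoters of the p53 targets were read from RefSeq (GRCm38.p6), from 250 bases before to 50 bases after the annotated start. The p53 half-site, the 10-letter palindrome bound by a pair of p53 subunits, was searched by its consensus on both strands. It was found in the windows of 12 of the 34 p53 targets with an entry (35.3%), against 543 of 6686 compared genes with an entry (8.12%) and 9.55% of all genes in the table. The windows of the 4 targets that held it and were at least 1.5-fold lower in the double KO are printed, with the half-sites in capitals, to show where the letters lie. Of the 17 targets at least 1.5-fold lower these 4 held it, and the other holders included Sesn1 (0.36) and Siva1 (0.07), which were above 0. A match is a description and not evidence of binding.

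Cdkn1a, chr17:29090729-29091028, plus strand: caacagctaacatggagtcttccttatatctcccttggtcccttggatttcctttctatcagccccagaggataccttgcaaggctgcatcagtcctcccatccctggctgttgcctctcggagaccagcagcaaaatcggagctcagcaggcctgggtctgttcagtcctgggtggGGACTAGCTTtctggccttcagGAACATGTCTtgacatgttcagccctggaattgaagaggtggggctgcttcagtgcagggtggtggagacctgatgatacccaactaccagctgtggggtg
Ccng1, chr11:40755237-40755536, minus strand: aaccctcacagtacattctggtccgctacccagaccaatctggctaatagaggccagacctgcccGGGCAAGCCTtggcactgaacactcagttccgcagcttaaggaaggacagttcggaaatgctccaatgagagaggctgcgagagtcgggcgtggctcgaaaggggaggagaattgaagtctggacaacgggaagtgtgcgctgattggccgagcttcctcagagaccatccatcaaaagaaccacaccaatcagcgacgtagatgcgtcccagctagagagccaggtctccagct
Aen, chr7:78895677-78895976, plus strand: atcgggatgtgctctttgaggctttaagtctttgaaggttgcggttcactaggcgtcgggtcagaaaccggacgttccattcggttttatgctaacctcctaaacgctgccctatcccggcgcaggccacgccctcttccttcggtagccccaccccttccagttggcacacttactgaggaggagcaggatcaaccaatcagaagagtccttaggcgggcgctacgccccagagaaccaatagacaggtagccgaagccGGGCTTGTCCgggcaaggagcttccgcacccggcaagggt
Polk, chr13:96519138-96519437, minus strand: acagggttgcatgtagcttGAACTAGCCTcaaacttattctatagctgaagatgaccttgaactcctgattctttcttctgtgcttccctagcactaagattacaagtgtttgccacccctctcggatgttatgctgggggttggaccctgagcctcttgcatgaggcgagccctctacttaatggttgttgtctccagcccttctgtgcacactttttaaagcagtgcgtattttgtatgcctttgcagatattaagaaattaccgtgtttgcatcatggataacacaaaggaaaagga

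The Cdkn1a window held 2 half-sites and the others 1 each. Polk, a translesion DNA polymerase, had 11.6 TPM in control cells against 6.80 TPM in double KO cells (-0.70), but in the second pair it went the other way (3.35 TPM with the Tut1 KO label and 6.39 TPM with Trp53 KO).

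The splicing machinery was examined because Tut1 modifies U6 snRNA. The 23 genes for U6 processing, Lsm and tri-snRNP proteins, called the U6 list here, had a median of 0.16. Of these, 19 were above 0, where 49.7% of all genes were. Their summed level was 2175 TPM in control cells against 2515 TPM in double KO cells. The list holds Tut1 itself and the U5 proteins Prpf8, Prpf6 and Snrnp200. The 39 Sm and snRNP proteins had a median of 0.14, with 30 above 0. The 49 assembly and catalysis factors had a median of 0.08. The 32 SR proteins and their kinases had a median of -0.06 with 25 below 0, and the 57 hnRNPs and other regulators a median of -0.08 with 35 below 0.

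The largest differences in the U6 list lay in 3 large proteins of the tri-snRNP. Prpf8, the scaffold of the catalytic centre, had 71.7 TPM in the control, 119 in the double KO, 102 with the Tut1 KO label and 67.7 with Trp53 KO, a difference of 0.73 or 1.67-fold. Snrnp200, the helicase that unwinds U4 from U6, had 45.2, 79.7, 74.2 and 42.0 TPM (0.80). Prpf3, a U4/U6 protein, had 38.9, 64.5, 54.4 and 30.4 TPM (0.71). In each of these genes both libraries labelled with Tut1 deletion were above both of the others. The 3 were named for the size of their first-pair difference, and the share of all genes with this order was not counted.

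The same order was seen for Prpf38b, a spliceosome protein, with 25.2, 65.5, 54.2 and 25.9 TPM (1.34), and for Lsm7, a subunit of the ring that binds the U6 tail, with 164, 239, 282 and 175 TPM (0.54). Other proteins of the particle differed little. Eftud2, the GTPase partner of Prpf8, had 95.8, 95.7, 87.0 and 83.1 TPM (0.00), Prpf31 had 80.8, 75.2, 66.0 and 63.4 TPM (-0.10), and Prpf6 had the order above with values closer together, at 49.3, 54.3, 54.1 and 48.8 TPM (0.13). Lsm5 was lower in the double KO at 144 and 115 TPM (-0.32).

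Read as Tut1 KO minus Trp53 KO, the second pair carries the Tut1 label in the same direction as the first. The U6 list had a median of 0.14 there and the Sm and snRNP list also 0.14, while the median over all genes was -0.05. The library labelled Tut1 KO had more than the Trp53 KO library for 15 of 23 and 25 of 39 genes, where it had for 43% of all genes. The second pair depended on GC content (Spearman's rho 0.32 between Tut1 KO minus Trp53 KO and the GC content of the transcript), and the first did so little (rho -0.05). When GC content and length were regressed out, the U6 and Sm medians were 0.18 and 0.14 in the first pair and 0.13 and 0.07 in the second. The Sm value of the second pair was thus lowered by over 1.5 times.

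**Figure D3:**
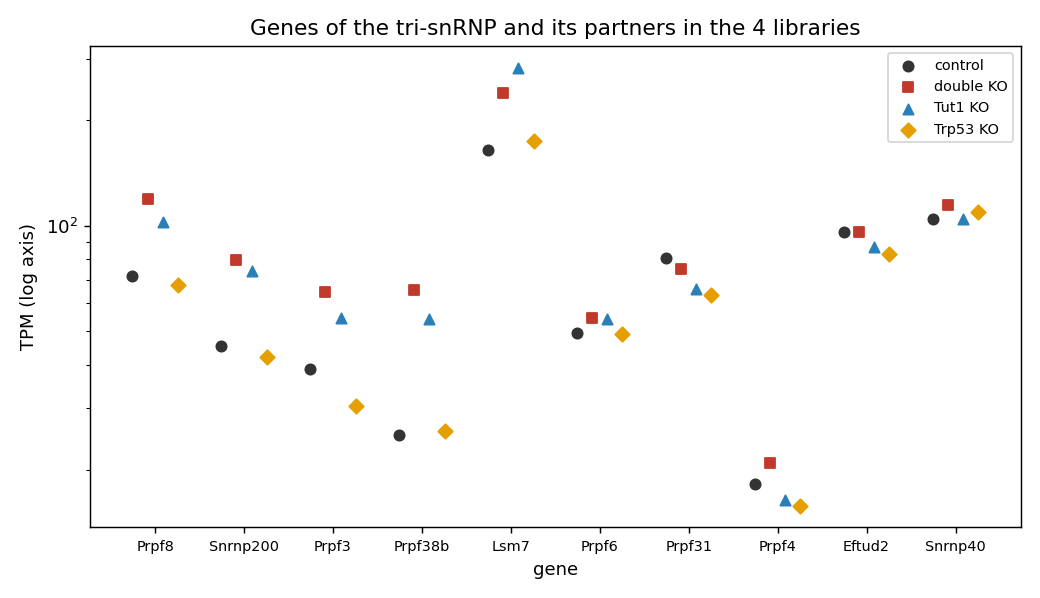
TPM (log axis) of 10 tri-snRNP and partner genes, picked after their values were seen, in the control (circle), double KO (square), Tut1 KO (triangle) and Trp53 KO (diamond) libraries. For Prpf8, Snrnp200, Prpf3, Prpf38b and Lsm7 the square and triangle lie above the circle and diamond, as at 119 and 102 TPM against 71.7 and 67.7 TPM for Prpf8, whereas for Prpf31 and Eftud2 the double KO is at or below the control.

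Among the regulators, a few genes stood well apart from the small shift of their list. Hnrnpu, an RNA-binding protein of the nuclear scaffold, had 904 TPM in control cells against 304 TPM in double KO cells (-1.57). Mbnl2 had 33.3 and 12.8 TPM (-1.32), and its paralogue Mbnl1, also a muscleblind splicing factor, had 0.73 and 15.8 TPM (3.28). Mbnl1 was near 0.5 TPM in the other 2 libraries, so the double KO was the only library in which it was above 1 TPM. Raly, an hnRNP, had 187 and 358 TPM (0.93). Dyrk1a, a kinase that phosphorylates SR proteins, had 27.3 and 10.3 TPM (-1.32), and Pnisr, a serine- and arginine-rich protein, had 67.4 and 34.8 TPM (-0.93). Matr3 (191 and 81.7 TPM, -1.21) shares exons with another gene, so its value is uncertain.

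**Figure D4:**
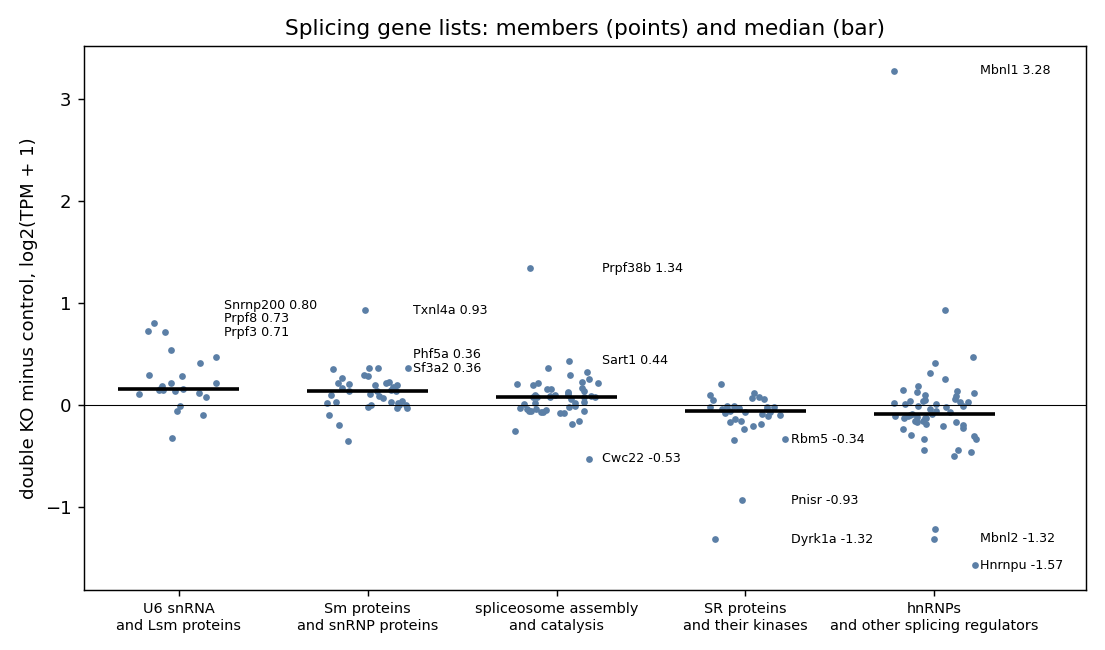
Each point is a gene of 1 of 5 splicing lists, spread sideways at random, and the bar is the list median, with the 3 largest differences of each list named beside their value. The y axis is double KO minus control, log2(TPM + 1). The medians step from 0.16 for the U6 list to -0.08 for the hnRNPs, and most points lie within 0.5 of 0.

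Terminal nucleotidyltransferases other than Tut1 were nearly level. Tut4 and Tut7, which uridylate microRNA precursors and mRNAs, had 12.9 and 11.9 TPM and 21.2 and 22.2 TPM in the first pair. The 7 genes of this family lay between -0.10 and 0.22. The 5 genes singled out by the study for altered splicing, of which C1qbp came from embryonic tissue and the others from neural stem cells, are no independent evidence of direction and had a median of -0.14, with Ube2v2, a ubiquitin-conjugating enzyme variant, at 44.3 and 20.5 TPM (-1.08). Usb1, the nuclease that trims the U6 tail, had 24.4 and 23.3 TPM (-0.06).

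Of the translation lists, those of ribosomes and cytosolic synthetases lay slightly above 0 and that of mitochondrial synthetases below it. The 61 genes of ribosome biogenesis had a median of 0.10 with 47 above 0, and the 80 cytosolic ribosomal proteins 0.08 with 56 above 0. Under another scaling, quantile normalization, the latter median was 0.04. The 78 mitochondrial ribosomal proteins had a median of 0.11 with 56 above 0. Of the 23 cytosolic aminoacyl-tRNA synthetases, 20 were above 0, though their median was only 0.06. Nars, the cytosolic enzyme for asparagine, was the furthest of them at 102 TPM in control cells against 146 TPM in double KO cells (0.51). The 11 mitochondrial aminoacyl-tRNA synthetases had a median of -0.07, with 7 below 0. Of 67 translation factors 1 was called lower, where 1.45% of all genes were. This was Eif5, which triggers GTP hydrolysis at the start codon, had 144 and 41.8 TPM (-1.76), and it was at 22.8 and 32.7 TPM in the second pair (Tut1 KO, then Trp53 KO).

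The nuclear and mitochondrial parts of the respiratory chain differed in direction. The 79 nuclear-encoded subunits had a median of 0.10, with 58 above 0. Cox7a2l, a supercomplex factor, had 247 TPM in control cells against 464 TPM in double KO cells (0.91), and Ndufa12 of complex I had 126 and 201 TPM (0.68). All 13 mitochondrially encoded subunits were below 0, with a median of -0.25 and a summed level of 90437 TPM in control cells against 80253 TPM in double KO cells.

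Within the mitochondrial genome the subunits did not move alike. mt-Nd3 had 1888 and 1144 TPM (-0.72) and mt-Nd4l 1051 and 747 TPM (-0.49), while mt-Co1 (16076 and 16045 TPM), mt-Co2 (12439 and 12129 TPM) and mt-Co3 (6380 and 6212 TPM) differed by -0.00, -0.04 and -0.04. The other 2 libraries summed to 76790 and 77607 TPM, so the control was the highest of the 4 for this list. Read as Tut1 KO minus Trp53 KO, the nuclear-encoded list had a median of 0.33 and the mitochondrially encoded list -0.06, and these were 0.23 and 0.04 with GC content and length regressed out.

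Stress programmes were mixed. The 18 genes of the Atf4 programme, which answers to amino acid shortage and to eIF2 phosphorylation, had a median of 0.20. Atf4 had 131 TPM in control cells against 230 TPM in double KO cells (0.81), and 131 and 133 TPM in the second pair (Tut1 KO, then Trp53 KO), so the double KO stood alone. Its partner Cebpg had 18.1 and 22.4 TPM (0.29), Ddit3, or Chop, 31.8 and 40.5 TPM (0.34), and Eif4ebp1, a translation repressor, 56.9 and 70.9 TPM (0.31). Nupr1 was called higher (1.89), while Gdf15 was called lower (-1.09) and Sesn2, a listed p53 target, was at -0.92. Of the 18 genes, 3 passed the minimum through the double KO alone, among them Nupr1, and 1, Gdf15, through the control alone. With 10 TPM asked of both libraries the median was 0.20.

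The Atf4-type motif TGATGNAAN, searched on both strands, was found in the promoter windows of 4 of 17 genes of the Atf4 programme and of 5 of 16 cytosolic aminoacyl-tRNA synthetases, against 2.33% of compared genes and 4.50% of all genes in the table. The window of Nupr1 is printed with its match in capitals, since it was the only gene of the programme with the motif that was at least 1.5-fold higher; Chac1, Jdp2 and Vldlr held it with differences of 0.08, 0.30 and -0.01.

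Nupr1, chr7:126625421-126625720, minus strand: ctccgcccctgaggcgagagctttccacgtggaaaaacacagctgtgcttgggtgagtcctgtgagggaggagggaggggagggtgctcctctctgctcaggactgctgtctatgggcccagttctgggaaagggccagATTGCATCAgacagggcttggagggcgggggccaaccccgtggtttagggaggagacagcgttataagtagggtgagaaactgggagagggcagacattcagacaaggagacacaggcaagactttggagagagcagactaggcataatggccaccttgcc

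The unfolded protein response of the endoplasmic reticulum was not higher, with a median of -0.04 over 34 genes. Its transcription factor Xbp1 had 21.3 TPM in control cells against 16.4 TPM in double KO cells (-0.36). Cytosolic and mitochondrial chaperones had a median of 0.10 over 35 genes, with 26 above 0. They ran from Hspa8, the constitutive HSP70, at 1865 and 1098 TPM (-0.76), to the HSP40 gene Dnajb4 at 6.94 and 21.9 TPM (1.53). Of 42 interferon response genes 6 reached the minimum level, and all 6 were above 0. They were Ifitm3 (12.4 and 19.2 TPM), Bst2 (9.29 and 13.8 TPM), the class I genes H2-D1 (24.96 and 34.6 TPM) and H2-K1 (55.9 and 69.5 TPM), B2m (146 and 153 TPM) and Adar (15.8 and 16.4 TPM). None of the 6 was past 1.5-fold on the log2(TPM + 1) scale, and Bst2 passed the minimum through the double KO alone. Their median of 0.38 was 0.31 with 10 TPM asked of both libraries and 0.11 with no minimum level.

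Proliferation genes were level as lists. The 61 mitosis and spindle genes had a median of 0.02 and the 50 DNA replication genes 0.01. None of the former was called, and 1 of the latter, Fen1 (1.32), was called higher. Over all genes 1.11% were called higher and 1.45% lower. The middle 50% of these lists lay between -0.07 and 0.09 and between -0.09 and 0.10. In the second pair, Trp53 KO minus Tut1 KO, the mitosis list had a median of 0.35. There 58 of 61 genes were above 0, where 56.9% of all genes were. With GC content and length regressed out this median was 0.29. Among cyclins and CDKs, Cdk2 had 35.9 TPM in control cells against 16.1 TPM in double KO cells (-1.11) and Cdkn2d, the INK4 inhibitor p19, had 60.2 and 20.7 TPM (-1.50). Both were lowest in the double KO among the 4 libraries. Lin54, a DNA-binding subunit of the DREAM complex, had 6.19 and 15.8 TPM (1.22).

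Genes of homologous recombination and the Fanconi anaemia pathway had a median of -0.17, with 18 of 21 below 0, in the first pair. In the second, Trp53 KO minus Tut1 KO, the median was 0.29 with 19 of 21 above 0, where 56.9% of all genes were. That second median was 0.26 with GC content and length regressed out. Of the 21 genes 3 passed the minimum through the control alone, and the first median was -0.16 without them. Brca2, a mediator of strand exchange, had 11.5 TPM in control cells against 9.52 TPM in double KO cells (-0.25), and Rbbp8, which starts end resection, had 27.0 and 17.1 TPM (-0.63). Most of these genes are low, near 10 to 25 TPM. The class of genes under 20 TPM had a median of -0.04. Rad54b was an exception at 11.96 and 19.1 TPM (0.63). Mismatch and excision repair (-0.03, 21 genes) and end joining (0.01, 9 genes) were close to 0.

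**Figure D5:**
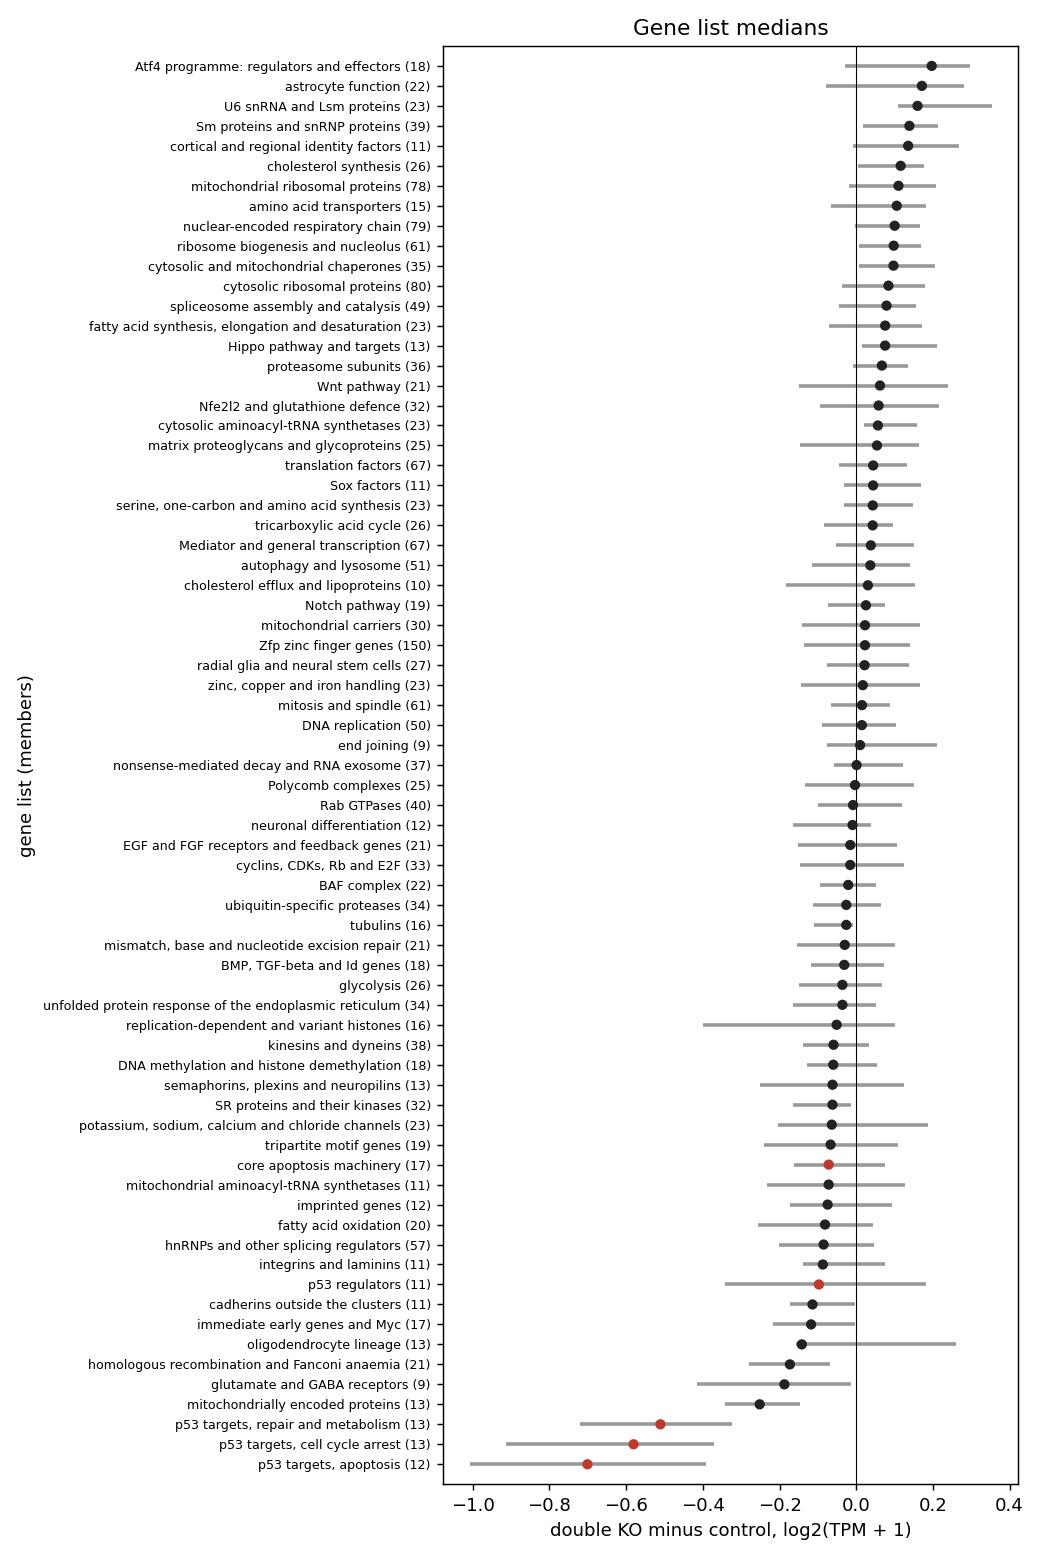
Median (point) and middle 50% of members (bar) of double KO minus control, log2(TPM + 1), for each gene list with 9 or more genes at the minimum level, with the number of genes in brackets and the 5 p53-related lists in red. The p53 target lists lie at -0.51, -0.58 and -0.70, apart from the rest, and all others lie between -0.25 and 0.20.

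Lineage lists differed in direction. The 27 radial glia and neural stem cell genes had a median of 0.02. Nes, the intermediate filament nestin, had 417 TPM in control cells against 313 TPM in double KO cells (-0.41), and the Notch effector Hes5 had 39.6 and 66.5 TPM (0.73). Hes5 was also 59.8 TPM with the Tut1 KO label and 36.8 TPM with Trp53 KO. Neuronal differentiation genes had a median of -0.01 over 12 genes, which turned sign under 1 other scaling and was -0.12 with a minimum of 1 TPM, with the lowest values in Btg2 (60.6 and 42.3 TPM), which is a p53 target as well, and Gap43 of the growth cone (640 and 490 TPM, -0.39).

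The 22 astrocyte genes had a median of 0.17, with 15 above 0, and the 11 cortical and regional identity factors had a median of 0.14, with 8 above 0, which was 0.05 with a minimum of 1 TPM and 0 with no minimum. The bicarbonate cotransporter gene Slc4a4 had 19.4 and 31.4 TPM (0.67), Sparcl1, a synapse-organising matrix protein, 92.8 and 142 TPM (0.60), and Glul, glutamine synthetase, 170 and 233 TPM (0.46). Gja1 and Apoe lay the other way (-0.23 and -0.21). The oligodendrocyte lineage list had a median of -0.14 over 13 genes, but Bcas1 of early myelinating cells had 24.5 and 49.3 TPM (0.98) and with no minimum level this median turned to 0.04. Glutamate and GABA receptors had a median of -0.19 over only 9 genes, or -0.02 with no minimum level, with Gabbr1 at 48.2 and 28.2 TPM (-0.75) and the AMPA receptor subunit Gria4 at 10.2 and 24.8 TPM (1.20).

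Of the signalling lists, the Hedgehog pathway had the highest median, 0.16 over 5 genes with 4 above 0. The other medians were -0.02 for EGF and FGF receptors with their feedback genes, 0.03 for Notch, -0.03 for BMP and TGF-beta, 0.06 for Wnt and 0.08 for Hippo, and each of the EGF and FGF and the BMP and TGF-beta medians turned sign under 1 other scaling, to 0.01 and 0.00. Immediate early genes and Myc had a median of -0.12 over 17 genes, of which 2 passed the minimum through the control alone. Over the alternatives this median lay between -0.12 and -0.05. Junb had 15.6 and 11.2 TPM (-0.44), and Myc itself 67.0 and 69.9 TPM.

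In lipid and sugar metabolism, the 26 cholesterol synthesis genes had a median of 0.12 with 19 above 0, among them Fdps, farnesyl diphosphate synthase, at 551 and 677 TPM (0.30) and the squalene epoxidase gene Sqle at 176 and 212 TPM (0.27). Fatty acid oxidation had a median of -0.08 over 20 genes and glycolysis -0.04 over 26. In glycolysis, Pfkfb3, which makes the activator of phosphofructokinase, had 50.3 TPM in control cells against 8.81 TPM in double KO cells (-2.39), and was at 7.46 and 12.2 TPM in the other libraries, so that the control stood alone. Elovl2, which elongates very long polyunsaturated fatty acids, had 27.7 and 2.37 TPM (-3.09), with 0.43 TPM with the Tut1 KO label and 23.4 TPM with Trp53 KO.

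Chromatin families were level as lists and held a few large single differences. In the BAF complex (median -0.02, 22 genes, 0.00 once GC content and length were regressed out) the ATPase gene Smarca2 had 65.7 and 24.7 TPM (-1.37). In the Polycomb complexes (median 0.00, 25 genes) Mtf2 had 9.78 and 24.4 TPM (1.24), and Jarid2 was lower (-1.02). Of 150 Zfp zinc finger genes, 6 were called higher and 3 lower, where 1.11% and 1.45% of all genes were. Ion channels had a median of -0.06 over 23 genes, which turned to 0.03 when 10 TPM was asked of both libraries, with 2 called higher, among them Kcna2 (1.41 and 36.9 TPM), and 3 called lower, Clcn3 (27.1 and 5.06 TPM), Trpm7 (25.7 and 7.42 TPM) and Kcnc1 (46.6 and 22.3 TPM). Over all genes 1.11% were called higher and 1.45% lower.

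The largest single differences, leaving out predicted genes, Riken clones and clustered protocadherins, lay in genes of different functions. Macroh2a2, a variant histone of repressed chromatin, had 0.16 TPM in control cells against 95.2 TPM in double KO cells (6.37). Of those that share no exons with another gene, the potassium channel gene Kcna2 followed (3.97), then Mbnl1 (3.28). Zbtb33, a methyl-DNA binding factor also called Kaiso, had 1.40 and 18.6 TPM (3.03), and Larp1b, an RNA-binding protein, 0.38 and 10.2 TPM (3.03). The GTPase gene Rac1 had 37.8 and 263 TPM (2.77), Samd8, a sphingolipid enzyme, 2.45 and 21.9 TPM (2.73), and Get1, a receptor for tail-anchored proteins, 5.47 and 41.2 TPM (2.71). A Septin2 ID (5.83, above Kcna2) and Derpc (3.14, above Zbtb33) were also among the 10 largest, and both share exons with another gene.

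In several of these genes the control stood apart from all of the other libraries. Macroh2a2 had 92.1 and 84.1 TPM, Kcna2 22.8 and 26.7 TPM, Rac1 234 and 248 TPM, Get1 40.0 and 35.8 TPM and Zbtb33 12.3 and 15.1 TPM in the second pair (Tut1 KO, then Trp53 KO). Over all 8261 genes, the control was below the other 3 libraries by at least 1 for 31 genes and above them by at least 1 for 25. These are by construction among the 92 and 120 genes called here. The control is the only library without Cre mRNA, and that treatment, the culture and the library cannot be told apart.

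With predicted genes, Riken clones and clustered protocadherins again left out, the lowest values began with Zbtb6, which shares exons with another gene. It had 15.9 TPM in control cells against 0.0037 TPM in double KO cells (-4.07). Beside Elovl2, Gatad2b (-2.98) and Zfp422 (-2.90) they held Zscan26 at 18.0 and 1.75 TPM (-2.78), Zfp260 at 36.0 and 4.69 TPM (-2.70), Utrn, the dystrophin relative utrophin, at 10.9 and 0.89 TPM (-2.66), Cav1, the coat protein of caveolae, at 28.1 and 4.47 TPM (-2.41), and Pfkfb3. Utrn (0.92 and 4.47 TPM) and Cav1 (2.15 and 5.66 TPM) were low in the second pair (Tut1 KO, then Trp53 KO) too.

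The double KO stood apart from all of the other 3 libraries by at least 1 for 27 genes, 10 above and 17 below. Among those above were Mbnl1, Mier1, an ELM2-domain chromatin factor (3.52 and 20.04 TPM), Flvcr1, a heme and choline transporter (4.23 and 18.4 TPM), Setd5 (28.3 and 65.6 TPM) and the latrophilin gene Adgrl2 (28.3 and 69.4 TPM). Among those below were Cdkn2d, Cdk2, Clcn3 and Trpm7, described above, and also Laptm4b, a lysosomal protein (128 and 49.0 TPM), Srp72 of the signal recognition particle (73.5 and 27.1 TPM), the recycling GTPase gene Rab11b (27.6 and 10.9 TPM), Trim32, a ubiquitin ligase (34.0 and 11.8 TPM). The same count was 56 genes for the control, 64 for the Tut1 KO and 45 for the Trp53 KO library. These counts are not on 1 footing, since genes were admitted by their level in the control or double KO. With 10 TPM asked of any of the 4 libraries, a choice made after seeing the data, they were 58 for the control, 30 for the double KO, 69 for the Tut1 KO and 58 for the Trp53 KO library.

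Some differences lay between overlapping IDs or near-identical copies. The 2 Septin2 IDs, which overlap at the same locus on the same strand, traded places. They had 265 and 19.7 TPM for ENSMUSG00000026276 and 4.10 and 288 TPM for ENSMUSG00000116048. Their sum was 270 TPM in control cells against 308 TPM in double KO cells (0.19). Eno1 was lower (2616 and 1497 TPM) while its intronless copy Eno1b was higher (211 and 1035 TPM), and their sum differed by -0.16. Likewise Rps27 (1370 and 1958 TPM) and Rps27rt (652 and 264 TPM) summed to a difference of 0.14. How reads were divided between such IDs is not given in the sources used here, and these pairs were picked after their values were seen.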

How the data were processed

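RNA of 4 mouse neural stem cell cultures, 1 library a group, was measured as gene-level TPM. The authors deposited the TPM values in 1 table, and the submitters' processing notes name Trimmomatic, HISAT2, StringTie and mm10 without versions. The labels name a stranded short-read mRNA kit while the series text describes long reads, so which platform gave the table is unsure. Depth cannot be recovered from TPM.

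Differences were taken on log2(TPM + 1) for protein-coding genes with 10 TPM or more in the control or the double KO library, with Python 3.11.15, pandas 2.3.3, numpy 2.4.6, scipy 1.17.1 and matplotlib 3.10.9. Biotypes, positions and shared exons came from GENCODE M21, promoters from RefSeq (GRCm38.p6). With 1 library a group no test was possible, and the counting code was tested on simulated data. Each of 78 gene lists is described by its median and counts.

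The members and lists were chosen with earlier results of these data known. The rule for genes to name was the 10 largest differences each way (leaving out predicted genes, Riken clones and clustered protocadherins), Tut1, Trp53, sex-linked genes, and in each list the 5 largest differences, the 3 highest control levels and all members of lists of 15 or fewer. Only some of these are printed, and that selection, like the other named genes, was made after values were seen. Alternatives changed the pseudocount, minimum level, scaling, threshold, genes sharing exons and GC and length. Reads over the floxed exons were not analysed here. Some items are not reported here.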

Additional observations from a re-analysis of the deposited data

Results flagged for a closer look

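Genes outside the protein-coding set were not part of the comparison, but 761 of them reached 10 TPM in the control or the double KO library, and 40 of these (5.26%) were higher by at least 1 in the double KO, against 1.11% of protein-coding genes. Another 47 (6.18%) were lower. Of the 40, 31 were processed pseudogenes, intronless copies of other genes, which were 483 of the 761, so that 6.42% of them were higher against 5.26% of the whole set. The largest of those higher were Rpl3-ps2 (4.03), Rps26-ps1 (3.63) and Rpl30-ps10 (2.65). Among those lower were Mir8114 (-5.52), which shares exons with another gene, mt-Tg (-4.36), Gng5-ps (-4.15) and mt-Tr (-3.97). Rpl3-ps2 was 5.60 TPM in control cells, 106.6 in double KO, 5.83 in Tut1 KO and 114 in Trp53 KO cells. Rps26-ps1 was 30.7, 390.7, 46.8 and 39.4 TPM, so the double KO stood alone. Rpl30-ps10 was 15.5, 102.6, 113 and 233 TPM, so the control was lowest. None of these differences was tested.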

How the results depend on the processing

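No paired analysis was possible because each group had 1 library, and for the same reason none could be left out. The 92 higher and 120 lower genes became 158 and 198 with a minimum of 1 TPM, the same 158 and 198 with no minimum, 36 and 61 when both libraries had to reach 10 TPM, and 231 and 303 at 1.5-fold. With a pseudocount of 5, 74 genes were lower. Of genes called higher, 59 (64.1%, against 56.9% of all genes) lay above 0 in Trp53 KO minus Tut1 KO, which became 100 with a minimum of 1 TPM, 100 with no minimum and 21 with 10 TPM in both. For the 52 called lower and below 0 there (43.3%, against 43.0% of all genes), the values were 86, 86 and 25, and 32 with a pseudocount of 5. These follow from the number of genes admitted and the weight of low values. The medians ranged from -0.56 to -0.44 for all p53 targets, 0.15 to 0.19 for the U6 list and 0.10 to 0.14 for Sm and snRNP proteins. They ranged from -0.29 to -0.20 for mitochondrially encoded proteins, 0.08 to 0.11 for the nuclear respiratory chain and -0.19 to -0.11 for homologous recombination. Of 719 further values of other list medians, 20 moved by 0.1 or more. The restriction to autosomes and the GC and length correction of the second pair were chosen after seeing the data. Differences cannot be set against variation between cultures.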
